A study of Mus musculus with 12 samples.

Results

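The genes described here are Il1a, Il1b, Il1rn, Il1r1, Il1r2, Il1rap, Ptgs2 and Osm, chosen by name as the interleukin-1 (IL-1) ligands, their antagonist and receptors, the inducible cyclooxygenase gene and oncostatin M. All 8 were found among the 27457 gene symbols of the count table. They were measured by 5′ single-cell RNA sequencing in tumors of MC38, a colon cancer line of C57BL/6J (B6) origin, injected under the skin of female mice when the animals were 8 to 12 weeks old. The hosts were B6 mice and F1 offspring of B6 and 7 Collaborative Cross (CC) strains, CC001, CC002, CC007, CC036, CC075, CC079 and CC080, which are recombinant inbred lines, so every F1 host carried 1 B6 genome. Each animal received 1 intraperitoneal dose of 200 µg of an isotype control antibody or of anti-PD-1 (aPD1) once its tumor measured 75 to 110 mm3, and was killed 48 hours later. Tumors were frozen, dissociated and sorted so that 90% of the cells loaded were CD45+ and 10% CD45-, which leaves the share of immune cells set by the sort. The 48 tumors were run as 12 pools of 4, each pool holding an isotype and an aPD1 tumor of each of 2 hosts, told apart by hashtag antibodies.

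The labels give the host of each tumor and not its response. The classes used below are the study's own for whole strains: CC001, CC002 and CC075 F1 hosts are responders to aPD1, and CC036, CC079 and CC080 F1 hosts are non-responders. This gave 10 responder tumors with isotype and 10 with aPD1, and 9 non-responder tumors with each antibody. B6 and CC007 F1 hosts have no class here and entered only the comparisons over all strains. A class is carried by 3 strains on each side, so tumors of a strain are replicates of that strain and not independent examples of a class. No hashtag was used for both antibodies, so a hashtag effect and a treatment effect cannot be told apart. The animal identifiers were distinct except that 1 identifier stood on 2 tumors of CC080 F1 hosts, an isotype tumor in pool 3 and an aPD1 tumor in pool 4. Each animal received 1 antibody, so this identifier cannot fit both tumors, and which label is wrong is not known.

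IL-1α and IL-1β are inflammatory cytokines that bind IL1R1, which then recruits the accessory chain IL1RAP and signals through MyD88 to NF-κB and MAP kinases. The antagonist encoded by Il1rn occupies IL1R1 without recruiting IL1RAP, and IL1R2 is a decoy receptor that binds IL-1 but lacks the intracellular signalling domain. PTGS2 (COX-2) catalyses the committed step from arachidonic acid to prostaglandins and is induced by IL-1 in many cells. Oncostatin M is a cytokine of the IL-6 family, made largely by activated myeloid cells and read by receptors that contain gp130.

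In the GRCm38 assembly with GENCODE annotation, Il1a, at chr2:129299610-129309972, and Il1b, at chr2:129364570-129371139, are neighbours on the minus strand, and Il1rn lies on the same chromosome at chr2:24336853-24351494. Il1r2, at chr1:40074079-40125231, and Il1r1, at chr1:40225080-40317257, are neighbours on the plus strand of chromosome 1, where Ptgs2 is found at chr1:150100031-150108227. Il1rap lies at chr16:26581704-26730117 and Osm at chr11:4236420-4241026. Annotated genes on the opposite strand that are also in the count table overlap Il1a (Gm14023), Il1b (Il1bos), Il1r2 (Gm16894) and Il1rap (Gm20319). Whether the counting used strand is not given in the sources used here, so whether reads of these pairs were kept apart could not be checked.

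The promoters of 4 members are shown because of the patterns described below. Il1b and Ptgs2 varied together across tumors, and Il1a shared their main cluster of cells. In macrophages Il1r2 was the only member to pass between the response classes with tumors as replicates. It did not pass with counts summed per strain. Each sequence is the 250 bases before the RefSeq transcription start on GRCm38.p6, written 5′ to 3′ on the gene's strand, and capitals mark the motif matches named after the sequences. Promoters of 7 of the 8 members were matched by symbol, Osm being the exception. The windows are chr2:129309973-129310222 on the minus strand for Il1a, chr2:129371140-129371389 on the minus strand for Il1b, chr1:150099781-150100030 on the plus strand for Ptgs2 and chr1:40085843-40086092 on the plus strand for Il1r2, whose RefSeq start lies inside the longer GENCODE gene.
Il1a promoter: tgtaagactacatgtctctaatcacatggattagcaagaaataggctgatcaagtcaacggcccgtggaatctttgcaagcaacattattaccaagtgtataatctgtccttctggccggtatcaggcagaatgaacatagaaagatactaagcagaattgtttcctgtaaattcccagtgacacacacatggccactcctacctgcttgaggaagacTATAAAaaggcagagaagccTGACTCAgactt
Il1b promoter: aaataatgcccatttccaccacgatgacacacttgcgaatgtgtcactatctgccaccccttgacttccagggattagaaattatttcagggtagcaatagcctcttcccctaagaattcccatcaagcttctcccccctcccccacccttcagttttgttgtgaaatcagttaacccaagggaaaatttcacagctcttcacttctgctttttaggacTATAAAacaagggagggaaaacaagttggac
Ptgs2 promoter: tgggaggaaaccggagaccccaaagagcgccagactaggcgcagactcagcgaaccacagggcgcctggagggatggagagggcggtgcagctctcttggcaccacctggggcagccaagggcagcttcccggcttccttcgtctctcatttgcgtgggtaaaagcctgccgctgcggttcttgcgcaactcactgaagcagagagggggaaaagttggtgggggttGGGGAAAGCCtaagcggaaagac
Il1r2 promoter: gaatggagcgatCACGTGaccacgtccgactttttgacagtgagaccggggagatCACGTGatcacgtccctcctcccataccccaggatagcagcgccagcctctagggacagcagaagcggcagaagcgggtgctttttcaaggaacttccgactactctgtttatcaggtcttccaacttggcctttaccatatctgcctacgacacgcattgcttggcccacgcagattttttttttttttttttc
On either strand, 5 motifs were searched. The TATA box was TATAAA. The AP-1-like motif was TGANTCA. The NF-κB-like motif was GGG followed, after any 5 bases, by CC. The CRE-like motif was TGACGTCA. The E box was CACGTG. No matches overlapped in the promoters shown, while in the Il1rap promoter, not shown, NF-κB-like matches on opposite strands overlapped each other. The Il1a promoter held TATAAA at 32 to 27 bases before the start and an AP-1-like match at 12 to 6 bases. The Il1b promoter held TATAAA at 31 to 26 bases, the Ptgs2 promoter an NF-κB-like match at 23 to 14 bases, and the Il1r2 promoter 2 E boxes, at 238 to 233 and at 195 to 190 bases. Such matches are common: of 32851 RefSeq promoter windows of this length, 45.8% held the NF-κB-like sequence, 12.4% TATAAA, 6.75% the AP-1-like sequence, 6.02% the E box and 1.55% the CRE-like sequence.

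The table held 93126 cells with a median of 3333.5 unique molecular identifiers (UMIs, each counting 1 captured transcript) per cell, and 53 to 3082 cells per tumor. UMIs per tumor ranged from 88816 to 17713491, and 3 tumors had under 500 cells. Of 87940 barcode sequences, 4990 occurred in more than 1 library. The authors' 27 numbered clusters were grouped by fixed marker lists into macrophage-like (68059 cells), T/NK-like (12021), dendritic (7817, from cDC1-like, cDC2-like and migratory DC-like clusters) and granulocytic-like cells (529), with smaller plasmacytoid and fibroblast-like clusters. Levels are given as CPM, the gene's UMIs divided by all UMIs of the cells summed and multiplied by 1000000. In such sums, fewer cells of a type and less RNA per cell cannot be told apart.

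Macrophage-like cells, called macrophages from here on, held most of the transcripts of 6 members, and 72.7% of all UMIs. They held 81.2% of the 409395 Il1b UMIs, 91.2% of the 6202 Il1a UMIs, 92.5% of the 75683 Il1rn UMIs, 83.4% of the 20443 Ptgs2 UMIs, 91.5% of the 30417 Osm UMIs. Their 71.3% of the 9385 Il1rap UMIs was close to their share of all UMIs. The decoy receptor Il1r2 had another distribution: cDC2-like cells held 46.7% of its 27717 UMIs, beside 7.23% of all UMIs, and macrophages 35.1%. The cDC2-like cells are cluster 14, in which 6 of 8 macrophage markers also reached 100 CPM. These markers summed to 3245 CPM there, beside 527 CPM of the 4 cDC2 markers. Of the 10 genes that marked cluster 14, 2 were cDC2 markers and Il1r2 was another. Il1r1, the signalling receptor, was sparse, with 1089 UMIs in all, of which fibroblast-like cells held 42.8% and macrophages 32.0%. The clusters were made from the expression of variable genes of these same cells, so the levels by cluster are given without a test. Whether the members were among those variable genes is not given in the sources used here.

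Among the ligands, Il1b was highest in the granulocytic-like cluster 16, at 13339 CPM, and ranged there from 4588 to 26826 CPM over the 18 tumors with at least 10 such cells. Macrophage clusters 4 and 2 followed at 2465 and 2440 CPM, and these neighbours in the order overlapped widely, with tumors from 1176 to 4840 CPM in cluster 4 and from 1088 to 4692 CPM in cluster 2. Migratory DC-like cluster 11 stood at 1707 CPM and cDC2-like cluster 14 at 1483 CPM. T/NK-like clusters stood at 4.98 to 22.9 CPM, except for cluster 12 at 708 CPM, in which 7 of 8 macrophage markers also exceeded 100 CPM. Il1a was also highest in cluster 16, at 188 CPM, followed by macrophage clusters 2 (38.7 CPM), 19 (31.3 CPM), 27 (21.7 CPM) and 4 (17.4 CPM). Cluster 2, the largest macrophage cluster with 18964 cells, held 52.5% of all Il1b UMIs and 54.9% of all Il1a UMIs, and Il1b, Osm and Ptgs2 were among the 10 genes that marked it.

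Il1rn, the antagonist, was spread over macrophages more evenly than the ligands. It stood at 1286 CPM in cluster 16, 398 CPM in cluster 21, 367 CPM in cluster 2, 327 CPM in cluster 27 and 325 CPM in cluster 4. In cluster 27 the Il1b level was 248 CPM, whereas in cluster 2 it was 2440 CPM, so clusters with a similar antagonist level had different ligand levels. In cDC1-like cluster 6, Il1rn was 6.96 CPM beside 818 CPM of Il1b.

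The receptors marked separate populations. Il1r2 was highest in granulocytic-like cells (2226 CPM), then in T/NK-like cluster 10, whose cells express Cd4 and Il13 (507 CPM), in cDC2-like cluster 14 (433 CPM), in migratory DC-like cells (126 CPM) and in cluster 8, the cluster with Foxp3 (100 CPM). Il1r1 was highest in cluster 23, 212 cells with Il17a and Il23r transcripts (217 CPM), and in fibroblast-like cluster 22 (149 CPM), and did not pass 20 CPM in any other cluster. No Il1r1 UMI was found among 562339 UMIs of granulocytic-like cells, which allows a level of up to 5.33 CPM. Il1rap was more uniform, at 558 CPM in granulocytic-like cells, 86.7 CPM in cluster 19 and 3.44 to 59.2 CPM elsewhere.

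Ptgs2 and Osm followed the myeloid clusters. Ptgs2 stood at 1490 CPM in granulocytic-like cells, 119 CPM in cluster 2, 106 CPM in cluster 4 and 84.8 CPM in cluster 19. Osm stood at 592 CPM in granulocytic-like cells and 396 CPM in cluster 4, above the 182 CPM of cluster 2. Granulocytic-like cells, although highest for 7 of the 8 members, were 0.568% of all cells and held 4.52% or less of the UMIs of any member.

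**Figure D1:**
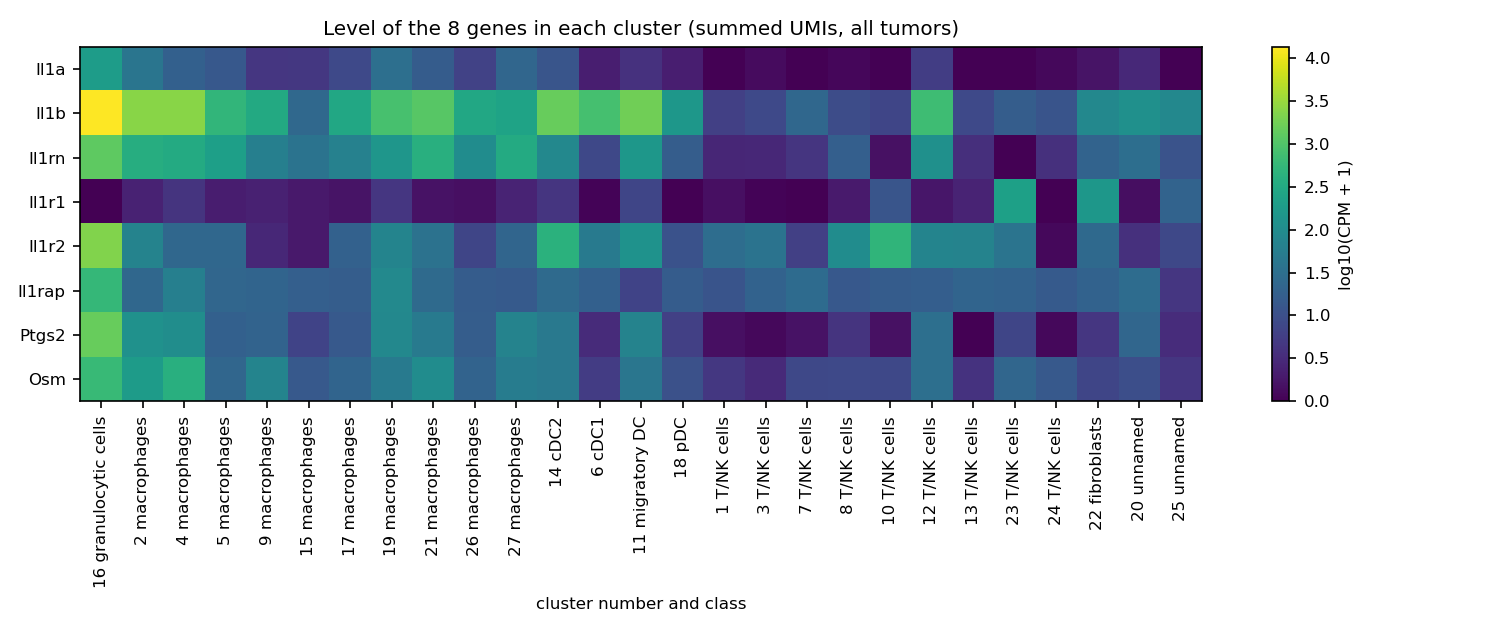
Level of each of the 8 genes (rows) in the authors' 27 clusters (columns, with the class of each cluster), as log10(CPM + 1) of counts summed over all tumors, shown by color. Granulocytic-like cluster 16 is highest for every gene but Il1r1, which is highest in clusters 23 and 22, and Il1r2 also stands out in clusters 10 and 14.

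The first comparison asked whether the IL-1 genes of tumor macrophages differ between hosts that respond to aPD1 and hosts that do not. Il1r2 was higher in responder strains, 1.94-fold on average over both antibodies, and was the only member of 8 to pass the test in this comparison. The 2 ligands, the antagonist, Ptgs2, Osm and the other receptor chains did not pass. Over all genes tested, 774 of 11873 (6.52%) passed at an adjusted p under 0.05, so a single member of 8 is not far from the background. Of these genes 487 were higher in responders and 287 lower, a split that was 338 and 524 with library-size scaling. The Il1r2 difference was above 0 under both scalings.

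Il1r2 in macrophages ranged from 8.19 to 79.9 CPM (median 32.5) in the 10 responder tumors with isotype and from 16.9 to 83.6 CPM (median 40.7) in the 10 with aPD1. In non-responder strains it ranged from 11.0 to 55.0 CPM (median 18.2) with isotype and from 8.56 to 45.8 CPM (median 20.5) with aPD1. The groups overlapped, but the responder medians lay above those of the non-responders with either antibody. The means were 41.8 ± 21.6 CPM (SD, n = 20) and 22.2 ± 12.5 CPM (SD, n = 18), a log2 fold change of 0.95 (SE 0.25, edgeR adjusted p = 0.0151). With isotype alone the difference was 0.79 (SE 0.37, adjusted p = 0.683), where 33 genes or 0.278% of those tested passed, and no member did. The other members had isotype differences of 0.04 (Il1a), 0.05 (Il1b), -0.26 (Il1rn), -0.52 (Il1r1), -0.30 (Il1rap), 0.06 (Ptgs2) and -0.63 (Osm). With aPD1 alone the Il1r2 difference was 1.12 (SE 0.35, adjusted p = 0.0446). There 761 genes or 6.41% passed, and Il1r2 was again the only member, a count not far from that share. The Il1r2 call was kept in 6 of 16 alternatives, with log2 differences from 0.65 to 1.34 and adjusted p-values by edgeR or DESeq2 from 0.0141 to 0.385. It was lost with library-size scaling (adjusted p = 0.055), without the filter on low counts (0.108), without the tumors of a shared identifier (0.0877), without cluster 2 (0.34), in pools 1 to 5 (0.385) or 8 to 12 (0.169) alone, and without CC002 (0.0781), CC075 (0.176), CC079 (0.118) or CC080 (0.239). The other members had aPD1 differences of 0.38 (Il1a), 0.61 (Il1b), 0.44 (Il1rn), -0.43 (Il1r1), -0.30 (Il1rap), 1.04 (Ptgs2) and -0.33 (Osm), with adjusted p-values by edgeR from 0.125 to 0.757.

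The Il1r2 difference was not carried evenly by the strains. The order of strain means was CC002 (52.9 CPM), CC075 (51.0), B6 (47.5), CC036 (29.3), CC007 (27.1), CC001 (26.6), CC079 (20.95) and CC080 (16.5). The gap between B6 and CC036 was the only step between neighbours that exceeded 1 SD of either strain, and CC001, a responder, stood below CC036, a non-responder. The CC007 mean includes an aPD1 tumor of 53 cells entered at 0 CPM, a count that allows up to 64.4 CPM. The other aPD1 tumor of CC007 stood at 43.6 CPM and those with isotype at 29.9 and 34.9 CPM. The place of CC007 below CC036, and so the gap below B6, depends on the tumor of 53 cells. Leaving out CC002, CC075, CC079 or CC080 moved the adjusted p to 0.0663, 0.112, 0.0656 or 0.0908, while leaving out CC001 raised the log2 difference to 1.29 (adjusted p = 0.000843). With the counts summed to 1 value per strain, 3 against 3, the log2 difference was 1.09 with an adjusted p of 0.699, and over all 21 alternatives it lay between 0.41 and 1.29 (adjusted p from 0.000843 to 0.891). In the 8 pools that held a responder and a non-responder host, Il1r2 was higher in the responder's tumor in 12 of 16 pairs of the same antibody, by a median of 0.92 on the log2 scale. Such pairs, here and below, repeat the same strains and are not independent examples of a class.

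**Figure D2:**
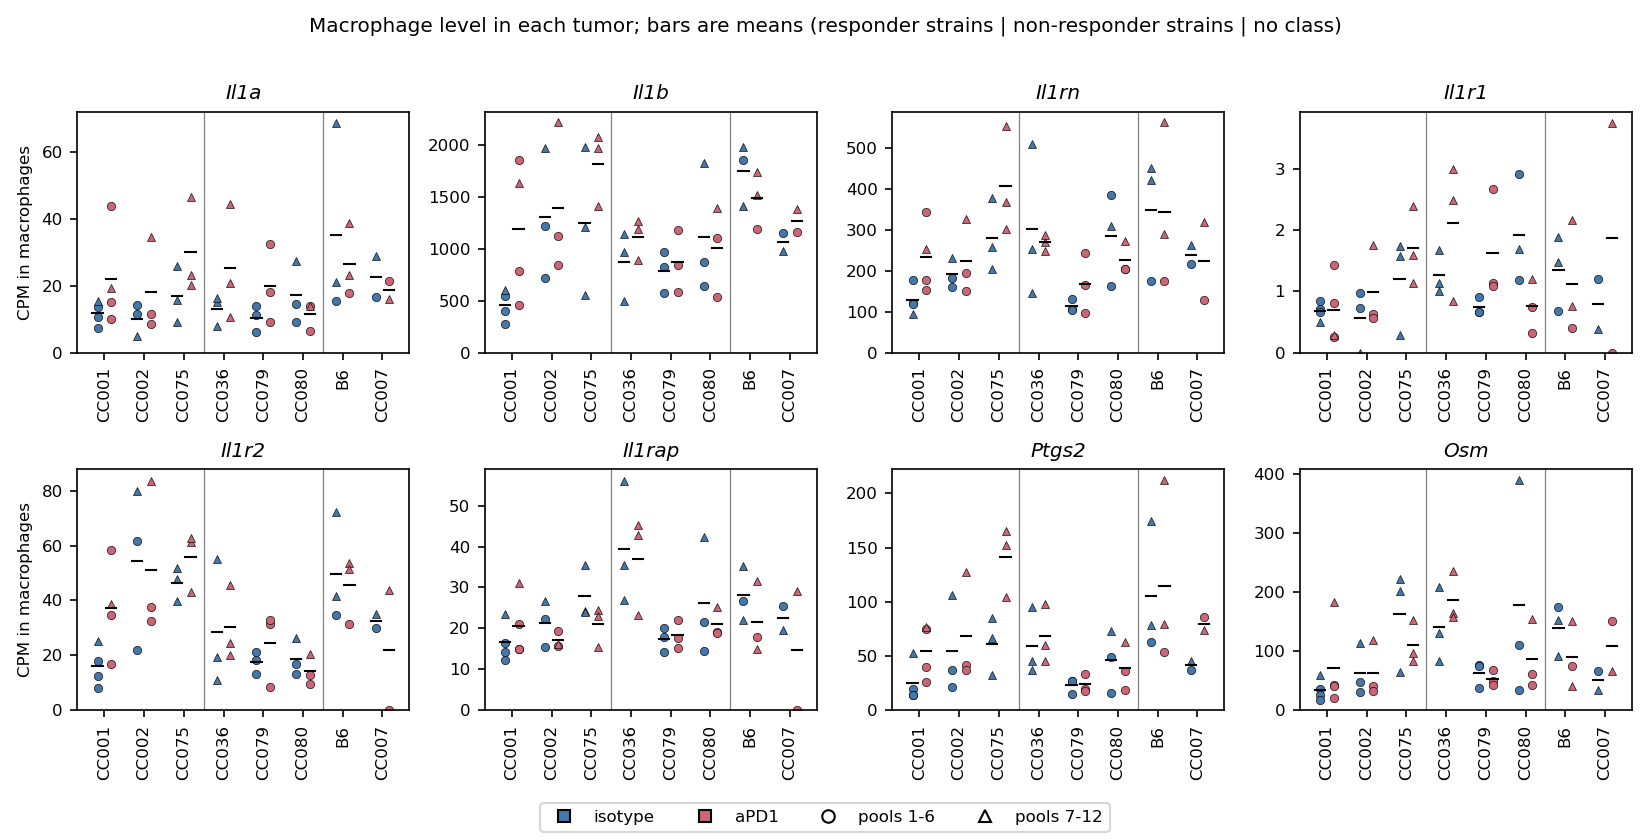
Level of each of the 8 genes in macrophages of each tumor, in CPM on a linear axis, by host strain; each point is a tumor, colored by antibody and shaped by range of pools, and each bar is the mean of a strain and antibody. Il1r2 has its highest strain means in CC002, CC075 and B6 hosts, and the triangles of pools 7 to 12 lie above the circles of pools 1 to 6 on average for each gene.

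Values that move with the macrophage sums are given here beside the Il1r2 result. The summed level of the 4 cDC2 markers, the cell type richest in Il1r2 UMIs, ranged from 22.6 to 131 CPM in responder tumors and from 26.8 to 145 CPM in non-responder tumors, with medians of 58.7 and 54.9 CPM against 71.0 and 63.1 CPM for isotype and aPD1. The cDC2 medians were thus lower in responders with either antibody. The 7 granulocytic markers, of the cell type with the highest Il1r2 level, summed to 62.8 to 308 CPM and 66.1 to 214 CPM, with medians of 109 and 109 CPM against 119 and 86.5 CPM for isotype and aPD1. With aPD1 the median sum was thus higher in responders, as were the medians of Csf3r (36.7 against 23.4 CPM), S100a8 (11.9 against 8.56 CPM), S100a9 (0.668 against 0.424 CPM) and G0s2 (0.714 against 0.294 CPM). Gsr was about level (55.9 against 54.7 CPM), Cxcr2 was lower in responders (0.241 against 0.416 CPM), and Retnlg had a median of 0 in each of the 4 groups. Over all macrophages the largest parts of the sum were Gsr (61.6 CPM) and Csf3r (31.1 CPM). S100a9 stood at 3.20 CPM beside 28814 CPM in granulocytic-like cells, and Retnlg at 0.169 beside 6208 CPM. The 8 T/NK markers, of cells with an Il1r2 level of 69.0 CPM beside 32.3 CPM in macrophages, summed to medians of 4.86 and 8.29 CPM in responders and 6.89 and 4.52 CPM in non-responders for isotype and aPD1. With aPD1 they reached 49.7 CPM in responders and 7.78 CPM in non-responders. The 6 markers of MC38 cells were lower in responders, with medians of 12.0 and 11.2 CPM against 25.2 and 31.2 CPM. The part of these markers in the result was not tested.

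Of the ligands, Il1b had means of 1194 ± 652 CPM in responder tumors (SD, n = 20) and 962 ± 344 CPM in non-responder tumors (SD, n = 18), a log2 difference of 0.33 (SE 0.23, adjusted p = 0.457). Il1a had 18.1 ± 11.7 and 16.2 ± 9.84 CPM, a difference of 0.21 (SE 0.24, adjusted p = 0.706). Il1rn had 238 ± 113 and 228 ± 107 CPM, a difference of 0.09 (SE 0.21, adjusted p = 0.885). These 3 differences were smaller than the spread between tumors of a class. The log2 ratio of Il1b to Il1rn, ligand against antagonist within a tumor, was 2.22 ± 0.51 (SD, n = 20) in responders and 2.13 ± 0.53 (SD, n = 18) in non-responders, a difference of 0.09 (permutation p = 0.611, adjusted p = 0.785 over 18 tests of shares and ratios).

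The fitted differences of the signalling receptor chains were below 0 and did not pass. Il1rap had 20.6 ± 6.15 CPM in responders and 26.6 ± 12.4 CPM in non-responders, a log2 difference of -0.30 (SE 0.17, adjusted p = 0.337), and within pools it was lower in the responder's tumor in 10 of 16 pairs. Il1r1 was at 0.95 ± 0.62 and 1.41 ± 0.82 CPM, a median of 6 UMIs per tumor, with a difference of -0.47 (SE 0.28, adjusted p = 0.364). Within pools Il1r1 showed no side, being higher in the responder's tumor in 8 of 16 pairs and lower in 8.

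Ptgs2 and Osm, both high in cluster 2, pointed in opposite directions. Ptgs2 had 64.7 ± 46.1 CPM in responders and 43.1 ± 25.9 CPM in non-responders, a log2 difference of 0.55 (SE 0.30, adjusted p = 0.304). With aPD1 alone the difference was 1.04 (SE 0.41, adjusted p = 0.125), with tumors from 25.7 to 166 CPM against 18.03 to 98.2 CPM, and with isotype alone 0.06 (SE 0.43). In a fit with the pools as a block the aPD1 difference was 1.03 with an adjusted p of 0.0176, and Ptgs2 was higher in the responder's tumor in 7 of 8 pools with aPD1 and 4 of 8 with isotype. Osm had 81.5 ± 63.8 and 118 ± 91.2 CPM, a difference of -0.48 (SE 0.35, adjusted p = 0.490). Within pools Osm was lower in the responder's tumor in 15 of 16 pairs, which repeat the same strains and are not independent. Osm strain means in responders were 137 CPM (CC075), 63.7 (CC002) and 53.2 (CC001). In non-responders they were 163 CPM (CC036), 132 (CC080) and 57.9 (CC079), so the classes overlapped. A fit with 2 ranges of pools (1 to 6 and 7 to 12, a split made here) as a term gave -0.65 (adjusted p = 0.0258), while a pool block gave -0.62 (adjusted p = 0.0638).

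**Figure D3:**
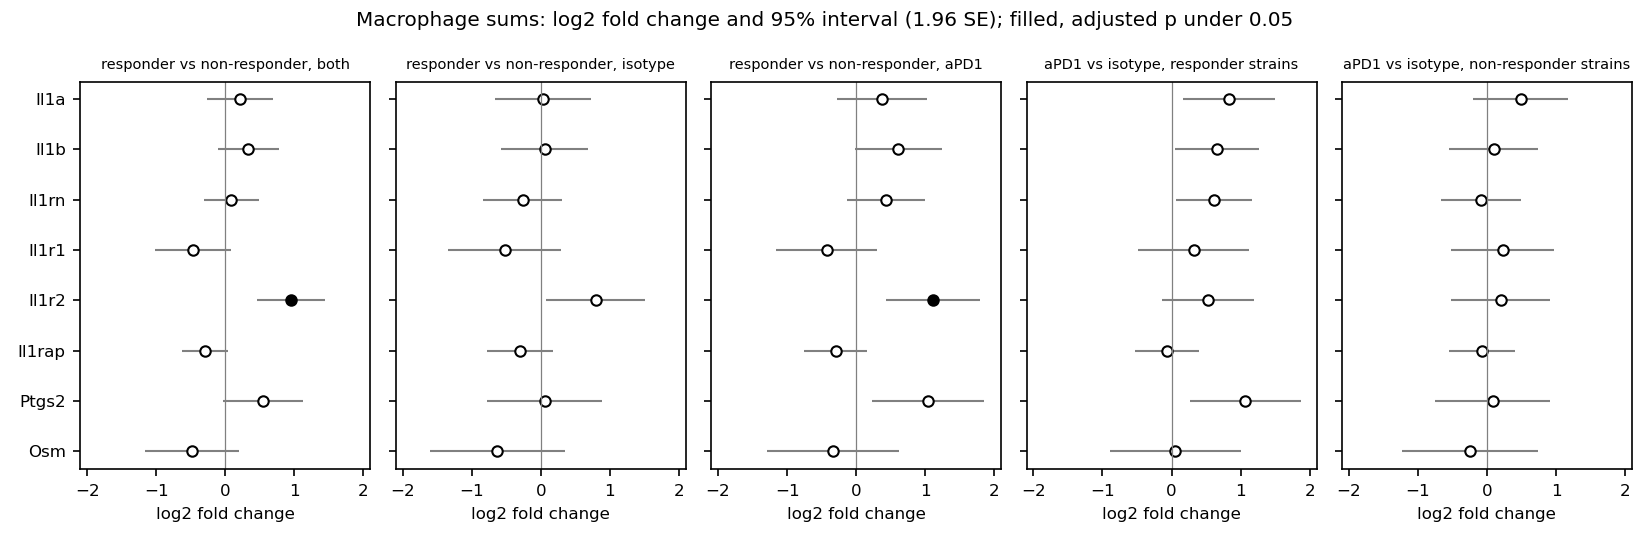
Fitted log2 fold change of each of the 8 genes in macrophages with its 95% interval, filled where the adjusted p was under 0.05, for responder against non-responder strains under both antibodies, isotype and aPD1, and for aPD1 against isotype in each class. Il1r2 lies above 0 in the class comparisons and is filled over both antibodies and with aPD1, and Ptgs2, Il1a, Il1b and Il1rn have intervals above 0 for aPD1 in responders although no gene passed after adjustment there.

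With tumors as replicates, the Il1r2 difference passed inside macrophage clusters 2, 5 and 26 alone. Tumors of a strain are not independent examples of a class, which these p-values do not take into account. No fit of a single cluster with counts summed per strain is given here. In all macrophages the Il1r2 difference kept its sign in such a fit but did not pass. Macrophage clusters 9, 15, 17 and 19 were not tested alone. In cluster 2 alone Il1r2 had 85.2 ± 39.5 CPM in responders and 44.8 ± 18.4 CPM in non-responders, a log2 difference of 0.91 (SE 0.18, adjusted p = 0.00129), where 3.75% of genes passed and 1 of the 7 members tested did. The other 6 had differences of 0.21 (Il1a), 0.28 (Il1b), 0.09 (Il1rn), -0.25 (Il1rap), 0.65 (Ptgs2) and -0.29 (Osm), with adjusted p-values by edgeR from 0.221 to 0.896. In cluster 5 the Il1r2 difference was 1.15 (adjusted p = 0.0019) against a background of 4.19%, and in cluster 26, 1.29 (adjusted p = 0.0295) against 7.38%. In cluster 26 Ptgs2 (1.12, adjusted p = 0.0453) and Il1b (0.72, adjusted p = 0.0497) passed too. In cluster 21 the Il1r2 difference was 0.67 (adjusted p = 0.237, background 1.72%) and in cluster 27 it was 0.41 (adjusted p = 0.891, background 0.763%). Cluster 4, where Il1r2 did not pass the filter on low counts at a level of 23.1 CPM, gave no member past the threshold, against a background of 0.496%.

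Outside macrophages no Il1r2 difference between the classes passed. In dendritic cells, which had the larger share of its UMIs, tumors ranged from 103 to 662 CPM in responders and from 115 to 659 CPM in non-responders, a log2 difference of 0.19 (SE 0.20, adjusted p = 0.810), and none of 7 members passed beside 1.26% of all genes. The other 6 differed by 0.73 (Il1a), 0.07 (Il1b), 0.05 (Il1rn), -0.15 (Il1rap), 0.05 (Ptgs2) and -0.39 (Osm). In T/NK-like cells Il1r2 was 57.2 ± 30.5 CPM in responders and 84.3 ± 63.8 CPM in non-responders, a difference of -0.57 (SE 0.28, adjusted p = 0.342), and none of 4 members passed beside 2.08% of all genes. The other 3 differed by -0.12 (Il1b), 0.52 (Il1rn) and -0.26 (Il1rap). The T/NK-like sums include cluster 12, whose macrophage markers summed to 7148 CPM beside 2501 CPM of T/NK markers. Taken within a tumor, the log2 Il1r2 level in macrophages minus that in T/NK-like cells was -0.47 ± 1.10 in responders and -1.70 ± 0.96 in non-responders. Macrophages minus dendritic cells was -2.95 ± 0.63 and -3.63 ± 0.86 (SD, 38 tumors in all). These differences are a description with no test, since the gene and the cell sets were picked from the values above. The T/NK-like sum joins clusters 8 and 10, the T/NK-like clusters highest in Il1r2, with other clusters. It therefore also moves with the makeup of these cells. Neither these differences nor a fit of T/NK-like cells is given here without clusters 8 and 10, or without cluster 12. The part of that makeup in these values is therefore left unresolved. In whole tumors, where all cells were summed, Il1r2 was 73.5 ± 36.5 CPM in responders and 62.9 ± 29.6 CPM in non-responders, a difference of 0.25 (SE 0.24, adjusted p = 0.748). None of the 8 members passed in whole tumors, beside 3.2% of all genes, with differences for the others of 0.24 (Il1a), 0.25 (Il1b), 0.13 (Il1rn), -0.48 (Il1r1), -0.22 (Il1rap), 0.48 (Ptgs2) and -0.43 (Osm).

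In granulocytic-like cells the members could be compared in few tumors, since only 16 tumors of the classed strains had at least 10 such cells and non-responders with aPD1 were represented by 1. None of the 7 members tested passed, nor did any of 830 genes (0.0%) by edgeR, with 74 genes at an unadjusted p under 0.05 and none called by DESeq2. Il1r2 was 2373 ± 787 CPM in responders (SD, n = 9) and 2625 ± 1721 CPM in non-responders (SD, n = 7). The fitted log2 difference was 0.26 (SE 0.42, edgeR adjusted p = 0.879), of the other sign than that of these means: it weighs both antibodies alike, so that the only non-responder tumor with aPD1, at 1549 CPM, counts as much as the 6 with isotype. On the same terms the fitted differences were 0.58 for Il1b, -0.01 for Il1rn, 0.18 for Il1rap, 0.53 for Ptgs2 and 0.31 for Osm, with SEs from 0.35 to 0.58. Il1a had 55 UMIs in the 9 responder tumors, of 279981 in all, and 7 in the 7 non-responder tumors, of 108241, with none in the non-responder tumor with aPD1, so no fitted fold is given (edgeR adjusted p = 0.528). The granulocytic-like share of all cells was 0.84% ± 1.30 in responders (SD, n = 20) and 0.43% ± 0.33 in non-responders (SD, n = 18), a difference of 0.41 percentage points (permutation p = 0.155, adjusted p = 0.592). The medians were 0.432% and 0.417%, and without the CC001 F1 isotype tumor of pool 12, at 6.00%, the difference was 0.14 points (permutation p = 0.297, adjusted p = 0.668), an alternative chosen after seeing the data.

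The second comparison asked what a single dose of aPD1 did to these genes within 48 hours. In responder strains Ptgs2 in macrophages ranged from 13.8 to 107 CPM (median 34.4) with isotype and from 25.7 to 166 CPM (median 75.9) with aPD1. The groups overlapped, and the fitted log2 difference was 1.07 (SE 0.41, unadjusted p = 0.0131, edgeR adjusted p = 0.662). Taken as pairs of the same pool and strain, the aPD1 tumor had the higher Ptgs2 level in 10 of 10 responder pairs, by a mean of 0.98 ± 0.82 (SD, n = 10 pairs) on the log2(CPM + 1) scale, and in 6 of 9 non-responder pairs, by a mean of 0.04 ± 0.72 (SD, n = 9 pairs). With these pairs as a block the fitted difference in responders was 1.04 (adjusted p = 0.161).

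**Figure D4:**
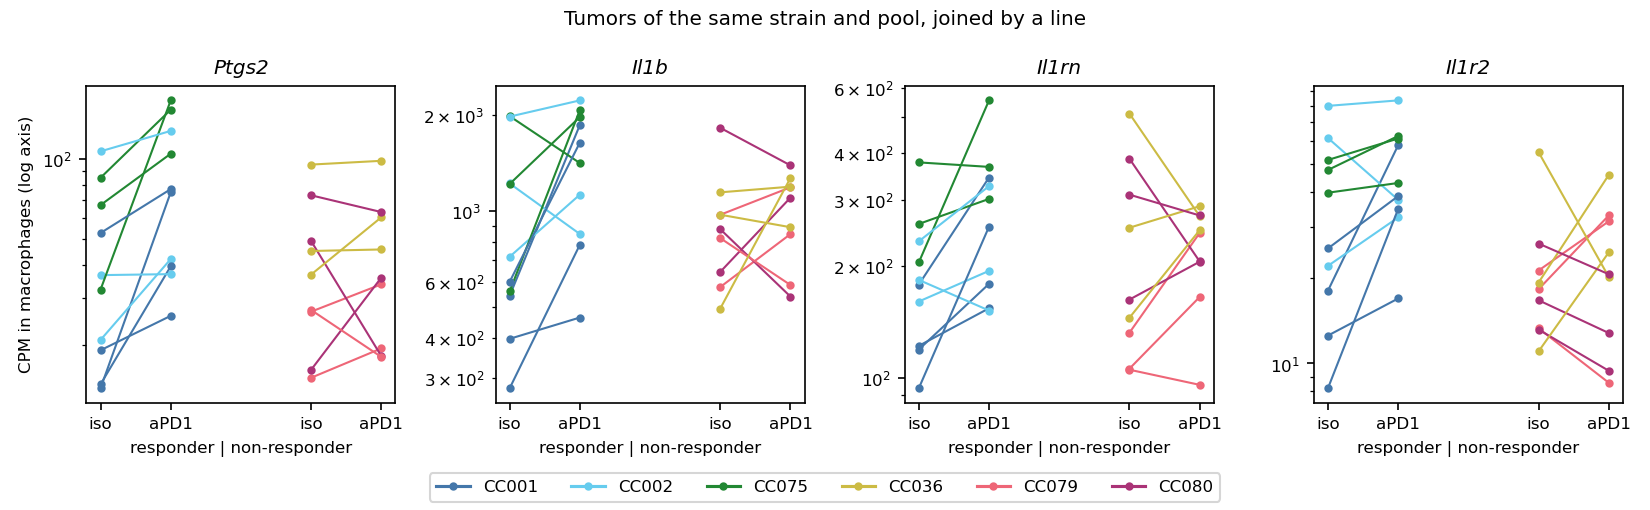
Level of Ptgs2, Il1b, Il1rn and Il1r2 in macrophages, in CPM on a logarithmic axis, in the isotype (iso) and the aPD1 tumor of the same pool and strain, joined by a line and colored by strain, with responder strains on the left of each panel. The Ptgs2 lines of the 10 responder pairs all rise to aPD1, and those of the 9 non-responder pairs go both ways.

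The ligands and the antagonist had smaller differences in responder strains, none of which passed. Il1a stood at 12.9 ± 5.84 CPM with isotype and 23.3 ± 13.9 CPM with aPD1, a log2 difference of 0.83 (SE 0.34, adjusted p = 0.697), with 6 of 10 pairs higher with aPD1. Il1b stood at 949 ± 625.2 and 1440 ± 610 CPM, a difference of 0.66 (SE 0.31, adjusted p = 0.717) with 8 of 10 pairs higher with aPD1. Il1rn stood at 193 ± 83.0 and 283 ± 125 CPM, a difference of 0.61 (SE 0.28, adjusted p = 0.717), also with 8 of 10 pairs higher. Il1r2 (0.52), Il1r1 (0.32), Il1rap (-0.06) and Osm (0.05) had adjusted p-values of 0.821 or more, with 9, 6, 5 and 6 of the 10 pairs higher with aPD1. In the 9 non-responder pairs the number higher with aPD1 was 4 for Il1r2 and Il1rap, 5 for Il1b, Il1rn, Il1r1 and Osm, and 6 for Il1a and Ptgs2. By edgeR no gene of 11873 passed in responder strains (0.0%), with 817 genes at an unadjusted p under 0.05, 4 members among them, and DESeq2 called 2 genes, neither a member. With the pools, or the pool-and-strain pairs, as a block edgeR called 2 genes as well, neither a member, with 1405 and 1650 genes at an unadjusted p under 0.05.

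No member passed in non-responder strains. The fitted log2 differences were 0.49 for Il1a, 0.23 for Il1r1, 0.20 for Il1r2, 0.10 for Il1b, 0.08 for Ptgs2, -0.07 for Il1rap, -0.08 for Il1rn and -0.24 for Osm, with SEs from 0.24 to 0.50. No gene passed there (0.0%, 93 at an unadjusted p under 0.05 by edgeR and none called by DESeq2). The treatment effect of Ptgs2 differed between the classes by 0.99 (SE 0.59, edgeR adjusted p = 0.871) and that of Il1rn by 0.70 (SE 0.41, adjusted p = 0.871). For the others it differed by 0.34 (Il1a), 0.56 (Il1b), 0.09 (Il1r1), 0.32 (Il1r2), 0.00 (Il1rap) and 0.29 (Osm), so a different response in responders was not shown for any member. For the test of that difference no gene passed (0.0%), with 677 at an unadjusted p under 0.05 by edgeR and 1 gene called by DESeq2. With either block edgeR called 1 gene for that difference, not a member (1342 and 1637 at an unadjusted p under 0.05). Over all 48 tumors and 8 strains, Ptgs2 had a log2 difference of 0.54 (SE 0.23, adjusted p = 1.00) and Il1a 0.48 (SE 0.24, adjusted p = 1.00). The others had 0.36 (Il1b), 0.29 (Il1rn), 0.35 (Il1r1), 0.34 (Il1r2), -0.08 (Il1rap) and -0.02 (Osm), and again no gene passed (0.0%, 411 at an unadjusted p under 0.05 by edgeR, none by DESeq2).

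The share of macrophages in cluster 2, where these genes were concentrated, was 22.5% ± 7.07 with isotype and 32.3% ± 8.98 with aPD1 in responder strains (SD, n = 10 each). This difference of 9.78 percentage points had a permutation p of 0.0163, which did not pass over the 18 tests (adjusted p = 0.294). The permutation did not use the pairing by pool and strain. In non-responder strains the shares were 26.2% ± 8.95 and 28.1% ± 6.42 (SD, n = 9 each), a difference of 1.90 points (exact permutation p = 0.607, adjusted p = 0.785). In responder strains the mean cluster 2 share and the mean Ptgs2, Il1a and Il1b levels were each higher with aPD1, and none of these differences passed. The part of the share in those levels was not tested.

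The host strain was associated with 6 of the 8 members in macrophages, in an F test over 8 strains with antibody as a covariate: Ptgs2 (adjusted p = 0.00103), Il1r2 (0.00107), Il1rn (0.00437), Il1rap (0.00548), Osm (0.0211) and Il1b (0.048), and not with Il1r1 (0.235) or Il1a (0.305). Over all genes 50.5% passed, so 6 of 8 is not far from the background. B6 hosts had the highest means of Il1a (30.8 CPM), Il1b (1618), Il1rn (347) and Ptgs2 (110), and CC036 F1 hosts the highest of Il1r1 (1.69), Il1rap (38.3) and Osm (163). CC079 F1 hosts had the lowest Il1rn (142 CPM), Il1rap (17.9) and Ptgs2 (23.3), and CC001 F1 hosts the lowest Il1b (820), Il1r1 (0.69) and Osm (53.2). A step between neighbours exceeded the SDs of both strains in 2 cases, that below B6 for Il1r2 and that from CC036 (38.3 ± 12.2, SD, n = 6) to B6 (24.8 ± 7.93, SD, n = 6) for Il1rap. It exceeded only the smaller of both SDs in 3 more: from CC075 (101 ± 51.0 CPM) to CC036 (63.5 ± 26.8) and from CC001 (39.6 ± 25.98) to CC079 (23.3 ± 7.01) for Ptgs2, and from CC002 (1351 ± 612) to CC007 (1169 ± 166) for Il1b. The step below B6 for Il1r2 depends on the CC007 F1 tumor of 53 cells, which was entered at 0 CPM.

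Strain and pool were not crossed, which bears on these orders. CC079 F1 hosts were run only in pools 1 to 6 and CC036 and CC075 F1 hosts only in pools 7 to 12. All 8 members had higher means in pools 7 to 12: Ptgs2 34.3 ± 19.4 against 89.6 ± 46.8 CPM, Osm 58.1 ± 38.6 against 140 ± 78.2 CPM and Il1b 906 ± 404 against 1410 ± 501 CPM (SD, n = 24 each), and Il1r2 had medians of 19.7 and 43.3 CPM. With the pools as a block none of the 8 members passed for host strain by edgeR, beside 12.5% of all genes, and with the 2 ranges of pools as a term 2 did, Il1r2 and Ptgs2, beside 28.5% of all genes. CC036, CC075 and CC079 F1 hosts were each run in a single range, so their means alone do not separate strain from range. The range term is estimated from B6 hosts and CC001, CC002, CC007 and CC080 F1 hosts, which were run in both. It assumes the same shift in every host. The split into 2 ranges was made here by pool number and is not a batch named in the labels.

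Across tumors a part of these genes varied together in macrophages. Of 28 pairs of members, 18 (64.3%) had a positive correlation that passed over the 28 tests (Pearson, 48 tumors, log2(CPM + 1), permutation) and none a negative one. Over all pairs of the 13010 genes tested, 23.2% had an r as high as the lowest of these 18, 0.35, and the median r was 0.07, beside 0.42 for the members. Within pools 1 to 6, 9 pairs passed (32.1%), beside 25.7% of all gene pairs as high as the lowest of them, and within pools 7 to 12, 8 pairs passed (28.6%), beside 5.67%. The share in pools 1 to 6 was thus not far from that of all genes. The closest pair was Il1b and Ptgs2, with r = 0.82 and rho = 0.84 (each permutation p = 1e-05, the smallest the resamples can give, adjusted p = 4.67e-05 and 2.55e-05), and r = 0.81 without the 2 tumors farthest from the median of Il1b. It held within pools 1 to 6 (r = 0.82, n = 24) and 7 to 12 (r = 0.73, n = 24), after strain-by-antibody means were removed (r = 0.77) and in macrophages without cluster 2 (r = 0.78).

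Other pairs followed. Il1rn and Ptgs2 had r = 0.75 (rho 0.75), Il1b and Il1rn r = 0.70 (rho 0.73), and Il1b and Osm r = 0.66 (rho 0.64), each with an adjusted permutation p of 4.67e-05 for r. Ptgs2 and Osm had r = 0.71 (rho 0.71, same adjusted permutation p), which was 0.68 within pools 1 to 6 and 0.28 (adjusted permutation p = 0.359) within pools 7 to 12. Il1r2 and Il1rap had r = 0.64 (rho 0.35), but this rested on the tumor of 53 cells, in which neither gene had a UMI among 46554, a count that allows up to 64.4 CPM: without the 2 farthest tumors r was 0.23. In the 45 tumors of at least 500 cells Il1r2 and Il1rap had r = 0.26 (adjusted permutation p = 0.0967), Il1rap and Osm had r = 0.78 (0.35 over 48), and 23 pairs passed (82.1%, beside 12.7% of all gene pairs as high as the lowest of them). Tumors of a pool share a library, and a pool's level enters each of these correlations.

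**Figure D5:**
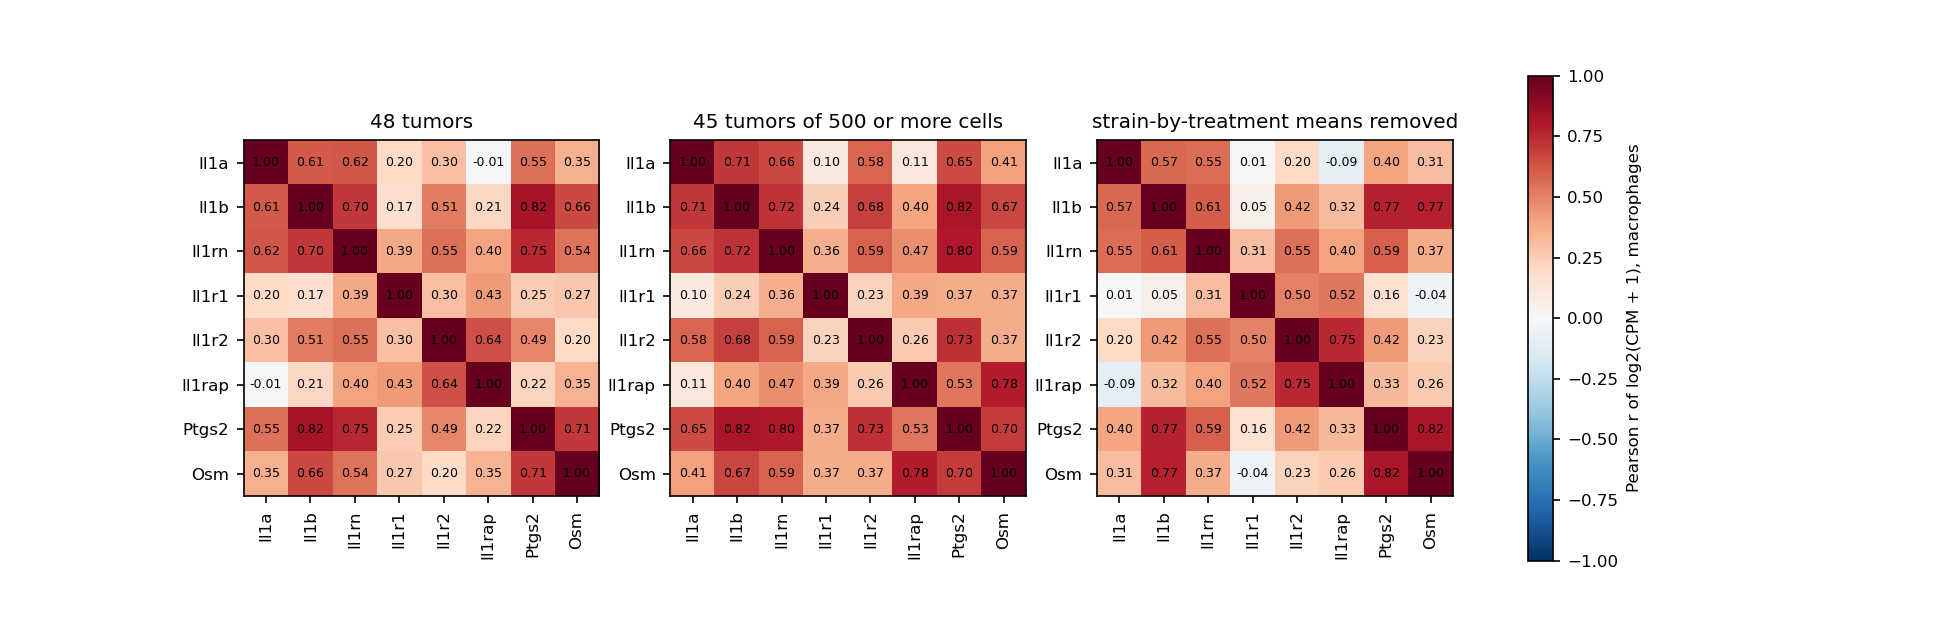
Pearson correlation between each pair of the 8 genes in macrophages, on log2(CPM + 1), over 48 tumors, over the 45 tumors of at least 500 cells, and over 48 tumors after strain-by-antibody means were removed. Il1b, Il1rn, Ptgs2 and Osm are correlated in each panel, and the Il1r2 and Il1rap pair falls from 0.64 to 0.26 without the smallest tumors.

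The wider pathway was followed through 4 lists of genes, chosen with earlier results of these data known. Their shares past the threshold are therefore given as a description. Of the list for IL-1 signalling and processing, 17 of 20 genes in the table were tested in macrophages and 2 (11.8%) passed between the classes, 1 in each direction, beside 6.52% of all genes, with a list median of 0.10 on the log2 scale against 0.00 over all genes. Il18bp, which encodes a soluble inhibitor of IL-18, was higher in responders, at 64.3 ± 23.9 CPM with aPD1 and 39.2 ± 19.4 with isotype against 20.8 ± 4.76 CPM with aPD1 and 25.995 ± 15.4 with isotype in non-responders, a difference of 1.13 (SE 0.20, adjusted p = 0.000244). Il1rl2, the IL-36 receptor, was lower, by a difference of -0.67 (SE 0.17, adjusted p = 0.0115). With aPD1 alone 4 of the 17 genes (23.5%) passed, beside 6.41% of all genes: Il18bp (1.71), Casp4 (0.79), an inflammatory caspase, and Gsdmd (0.36), the pore-forming protein it cleaves, were higher in responders, and Il1rl2 (-0.77) was lower.

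The other lists held few genes past the threshold. Of 14 prostaglandin genes tested 1 passed (7.14%), a share near the 6.52% of all genes. Ptger1, a prostaglandin E2 receptor, was higher in responders with a difference of 0.49 (SE 0.15, adjusted p = 0.0391) at levels near 2 CPM (2.14 ± 1.00 with isotype and 1.98 ± 0.38 with aPD1 in responders, 1.32 ± 0.65 and 1.72 ± 0.54 in non-responders), and the list median was 0.05. None of 8 OSM and gp130 genes (median 0.03) or of 11 IL-1-inducible genes (median 0.14, 2 at an unadjusted p under 0.05) passed over both antibodies. For aPD1 against isotype no gene of any list passed in either class, beside 0.0% of all genes. For host strain 14 of 19, 7 of 14, 5 of 8 and 6 of 11 genes of the 4 lists passed, beside 50.5% of all genes. The 6 with the smallest p in the first list were Casp4, Nlrp3, Il18, Irak2, Il18bp and Il18rap, and of these Nlrp3, the inflammasome sensor, had means from 59.9 CPM in CC079 to 134 CPM in CC007 F1 hosts. In the prostaglandin list Abcc4, Tbxas1, Ptges, Ptgs1, Ptger4 and Hpgds led, and Ptgs1, the constitutive cyclooxygenase, had its highest mean in CC001 (28.4 CPM) and its lowest in CC075 (8.29 CPM), where the Ptgs2 mean was 101 CPM. In the remaining lists Stat3, Jak1, Il6ra, Lifr and Il6st, and Nfkbiz, Saa3, Cxcl3, Tnfaip3, Icam1 and Nfkbia passed, with Saa3, an acute-phase protein, at 50.2 CPM in CC001 and 3.19 CPM in CC002 F1 hosts.

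Genes whose pattern was most like that of a member were listed by Pearson correlation, as a description without a test. Over the 27 clusters Il1b was most like Il1bos (r = 0.98), its antisense neighbour, then Mcemp1 (0.95) and Nfe2l2 (0.94), Ptgs2 was most like Slc7a11 (0.93), Il1a (0.92) and Ptgs2os2 (0.92), Osm was most like Ptgs2 (0.91), Ccrl2 (0.90) and Smox (0.89), and Il1r2 was most like Rab11fip1 (0.75), Pde4b (0.72) and Jak2 (0.71). Over the macrophages of 48 tumors the closest genes were Nfkbie (0.83), Ptgs2 (0.82) and Nfil3 (0.80) for Il1b, Rab11fip1 (0.90), Tnfaip3 (0.90) and Csrnp1 (0.89) for Ptgs2, Fosl2 (0.88), Tiam1 (0.87) and Stk40 (0.87) for Osm, and Gbp8 (0.86), Phlpp1 (0.84) and Gpd2 (0.84) for Il1r2. Tnfaip3 and Nfkbie encode inhibitors of NF-κB. Clusters differ in depth and tumors share pools, which enter each of these values.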

How the data were processed

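Tumor cells sorted by CD45 were profiled by 10x 5′ single-cell RNA sequencing in 12 pools of 4 hashtagged tumors. The authors deposited raw UMI counts per gene and cell in a table of all cells, with host, antibody, hashtag, animal identifier and cluster number of each cell. Per the submitters' processing notes and the study's methods, reads were aligned with Cell Ranger to GRCm38 with GENCODE annotation, cells high in mitochondrial or ribosomal transcripts were removed, and cells were clustered from variable genes with Seurat 5.0.1 after harmony integration, with macrophages and T/NK cells clustered again. No correction was applied to the counts themselves. No doublet caller was run here. Hashtag sequences were not used.

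Counts were summed per tumor over the clusters of each class (macrophages 2, 4, 5, 9, 15, 17, 19, 21, 26 and 27; T/NK 1, 3, 7, 8, 10, 12, 13, 23 and 24; dendritic 6, 11 and 14; granulocytic 16), keeping tumors with at least 20 cells of a class (10 for granulocytic). The tumor was the replicate. Classes were compared with edgeR 4.0.16 (R 4.3.3, TMM scaling, filterByExpr, robust quasi-likelihood test), with 4 groups of class and antibody in a fit and no pool term, and p-values were adjusted by Benjamini-Hochberg over all genes tested, at a threshold of 0.05. Host strain was tested by an F test with antibody as a covariate, and antibody over all strains with strain as a covariate. Two-sided permutation tests, exact where a group had under 10 tumors and otherwise with 100000 resamples, were used for shares, the ratio of Il1b to Il1rn (pseudocount of 1) and correlations on log2(CPM + 1) (Python 3.11.15, scipy 1.17.1). The scripts were tested on simulated data. Total UMIs per tumor were 88816 to 17713491. A limit for a count of 0 used 3 counts and covers counting error only.

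All members tested are named in each comparison of classes, antibodies and strains; single clusters other than cluster 2 are alternatives. Of 4 lists (IL-1 signalling and processing, prostaglandin, OSM and gp130, IL-1-inducible targets), genes past the threshold are named, at most 6 a list, and the 3 genes most like Il1b, Ptgs2, Il1r2 and Osm are named from correlations over clusters (genes of at least 50 CPM in a cluster) and tumors. The members and lists were chosen with earlier results of these data known. Alternatives were DESeq2 1.42.0, library-size scaling, no low-count filter, pools as a block, ranges of pools as a term, single ranges of pools, each strain left out, single clusters, other pseudocounts, and leaving out small tumors or the tumors that share an identifier. Tumors were paired by pool and strain: the deviations of 19 of 24 pairs from their group means correlated above 0.1 (-0.18 to 0.52, median 0.22). The block holds what tumors of a pool and strain share, not an animal, and the source of the shared part was not tested. Promoter sequences were from RefSeq on GRCm38.p6 and gene positions from GENCODE on GRCm38.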

Additional observations from a re-analysis of the deposited data

Results flagged for a closer look

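In macrophages of the non-responder isotype group, the CC080 F1 tumor of pool 11 stood apart from the other 8 for 3 members, with 27.5 CPM of Il1a, 1823 CPM of Il1b and 390 CPM of Osm. In the same group the CC080 F1 tumor of pool 4 stood apart for Il1r1 (2.92 CPM) and the CC036 F1 tumor of pool 8 for Il1r2 (55.0 CPM). In the responder isotype group the CC075 F1 tumor of pool 10 stood apart for Il1a (26.01 CPM), and the CC001 F1 tumor of pool 12 for its granulocytic-like share of all cells, 6.00% against 1.09% ± 1.80 over the group (SD, n = 10). These are 7 values, from 5 tumors, in 44 groups checked by the gap of the highest or lowest tumor to its neighbour, and chance alone flags about 5% of groups so checked. Each flagged tumor was the only one of its strain and antibody in its pool, and it was not compared here with the other tumors of that pool.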

How the results depend on the processing

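Counts below are of members past an adjusted p under 0.05 by edgeR. For responder against non-responder macrophages (1 member, Il1r2), 0 members passed in pools 1 to 5 or 8 to 12 alone, without CC002, CC075, CC079 or CC080, in clusters 4, 21 or 27 alone and with 1 sum per strain, 2 (with Osm) with ranges of pools as a term and 3 in cluster 26. With aPD1 alone (1), 0 passed with library-size scaling, without a low-count filter, without the tumors of a shared identifier, without cluster 2, in either range of pools alone and without CC002, CC075, CC079 or CC080, and 2 (with Ptgs2) with the pools as a replicate block, with ranges as a term and without CC001. The share of all genes in each of these fits is not printed here, so the changed counts are not read as particular to the members. For host strain (6, beside 50.5% of all genes) the pool block gave 0 (12.5%) and ranges as a term 2 (28.5%). In whole tumors (0) 1 passed without CC075 (Il1r1, beside 3.3% of all genes), in T/NK-like cells (0) 1 without a filter (Osm, beside 1.12%), and in cluster 2 (1) 3 without CC001 (with Il1b and Ptgs2, beside 6.91%). With aPD1 alone the 514 genes higher and 247 lower in responders became 344 and 597 with library-size scaling, in whole tumors 264 and 168 became 229 and 223, in T/NK-like cells 62 and 88 became 48 and 141, and in cluster 2 215 and 139 became 176 and 195. The replicate blocks changed no other count of members. Over all genes, both blocks took the calls for aPD1 in responders from 0 to 2 and for treatment by class from 0 to 1. Of 28 correlations, 18 passed over all tumors, 9 in pools 1 to 6 and 8 in pools 7 to 12. Among others, signs turned for Il1rap with Osm (-0.23, pools 1 to 6), Il1a with Osm (-0.046) and Il1r2 with Il1rap (-0.33, both pools 7 to 12), and for Il1a with Il1rap (0.38 without cluster 2). The lowest r was -0.014 over all tumors, 0.0024 on log2(CPM + 5) and 0.0999 without tumors of under 500 cells. The cause of these changes was not tested, beyond fewer tumors in a subset. Calls over all genes between the classes went from 774 to 304 and 327 in the 2 ranges of pools alone, 3 with sums per strain and 22 to 729 in single clusters. With isotype 33 became 11 to 73 and with aPD1 761 became 69 to 1388. For host strain 6565 became 1622 with the pool block and 3710 with ranges as a term. For T/NK-like cells 150 became 95 to 298, for dendritic cells 107 became 67 to 330 and for cluster 2 354 became 210 to 903. Granulocytic-like cells could not be fitted with the pool block or without CC079.

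Limits are few strains per class (3 against 3), strains tied to pools, hashtags tied to antibodies and a median of 6 Il1r1 UMIs per tumor in macrophages. Further limits are 18 tumors with enough granulocytic-like cells, and cell classes that were only checked against marker lists. Reads of CC alleles were counted on the B6 reference, whose effect on levels between hosts was not tested.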
